A study of Arabidopsis thaliana with 87 samples.

Results

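A set of 173 Arabidopsis thaliana genes had poly(A) RNA that was at least 2-fold higher after 9 h of darkness in air than after 2 h, and at least 2-fold lower when the 9 h of darkness were spent in hypoxia. They were chosen from the poly(A) RNA columns of the deposited table. Of 37746 nuclear genes listed, 12988 had a mean of at least 1 RPKM (reads per kilobase of gene, scaled by the library's depth) over those columns. After the columns were brought to the same total over these genes, a gene was a member when log2 of RPKM plus 1 was at least 1 higher in 9NS than in 2NS and at least 1 lower in 9HS than in 9NS. The members are 1.33% of the genes tested. Of them, 172 code for protein and 1 is a long noncoding RNA, and 47, 17, 34, 23 and 52 lie on chromosomes 1 to 5.

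Seedlings were 7 days old and had grown in days of 16 h light and 8 h dark on medium with 1% sucrose, and every group used here was put in the dark when the light period ended. The groups 2NS and 9NS then had 2 h and 9 h of darkness in air, and 2HS and 9HS had the same darkness in a chamber flushed with argon, which removes oxygen. In 1R, 1 h of air followed 2 h of hypoxia, and in 2R the hypoxia and the air lasted 2 h each. The 9 h samples were taken 1 h past the usual dawn, still in the dark, so a night difference, as 9NS against 2NS is called below, spans the usual night and this added hour. Nuclear RNA (ribosomal RNA removed), poly(A) RNA and open chromatin (ATAC) came from plants with pUBQ10:NTF and pACT2:BirA, which tag nuclei. TRAP RNA, the RNA bound to ribosomes, came from plants with p35S:RPL18-FLAG. H2A.Z was measured in plants with pHTA11:HTA11-3XFLAG, the transcription factor HRE2 in plants with p35S:C2A HRE2-HA, a constitutive promoter, and the other chromatin marks in Col-0. The HRE2 samples, at 2 h, were taken as 2HS here, and their titles do not name air or hypoxia. Whole seedlings were used except for ATAC, which used roots.

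The circadian clock of Arabidopsis runs on transcription factors that repress each other's genes in turn. CCA1 and LHY, MYB-like factors of the dawn phase, repress the evening genes, while RVE factors with their LNK partners activate genes later in the cycle. The clock and the phytochrome-interacting factors (PIFs) raise growth genes toward the end of the night, and many genes for light-harvesting proteins are clock-controlled and reach high RNA levels around dawn.

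The 87 samples fall in 35 groups of 2 or 3 replicates, of which the table gives the group means. Whole reads of 75 libraries, 1.05 to 21.0 M (M, mega) reads each, could be read back from the digits of these means. These libraries carry no replicate number and are named here by their depth in M reads. The labels do not say whether replicates came from separate cultures, so p-values measure the spread between these samples. Genes with many reads could often not be resolved, among them all 11 light-harvesting members in nuclear RNA at 9NS and in TRAP RNA, and for these the authors' group means are given with no error. The libraries differed in the RPKM they assign to genes: summed RPKM was 30.4 to 514 kRPKM (k, kilo) in poly(A) RNA, 31.9 to 338 kRPKM in nuclear RNA and 466 to 487 kRPKM in TRAP RNA. In poly(A) RNA the group sums were 351 kRPKM for 9NS and 53.8 kRPKM for 9HS, which is why the columns are brought to the same total. Among the nuclear libraries the 2NS library of 15.5 M reads (31.9 kRPKM) and the 2HS library of 16.6 M reads (39.8 kRPKM) stood apart. Levels below are RPKM after this rescaling and are not comparable between assays.

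Known hypoxia genes matched the labels. Of a list of 15 core hypoxia genes, 15 were at least 2-fold higher in 9HS than in 9NS, and their summed level was 55.5 in 2NS, 58.6 in 9NS, 1165 in 2HS and 1170 in 9HS. The summed level of 3 leaf genes, RBCS1A, RCA and LHCB1.2, was between 6037 and 9835 in the 5 poly(A) groups. RBCS1A, the highest of them, was at 5399 in 9NS and 5098 in 9HS, and RCA at 585 and 563. LHCB1.2 is itself a member, at 1856 and 376, so it is no independent check of the tissue. The summed level of 5 root hair genes was 10.2 in 9NS and 1.01 in 9HS, with 1 of them, EXPA7, at 0, and that of 4 guard cell genes was 4.42 and 8.94. The part of these cell types in the results below was not tested, and in whole seedlings fewer cells of a type and less RNA per cell cannot be told apart.

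In poly(A) RNA the members were low 2 h after dusk, high after 9 h of darkness and low after 9 h of darkness with hypoxia. Their median level was 2.34 in 2NS, 10.3 in 9NS and 2.11 in 9HS, while the median over all genes tested was 3.24, 3.06 and 3.29. The rule fixes this shape, so it is given as a description with no test. Of all genes tested, 259 (1.99%) were at least 2-fold higher in 9NS than in 2NS, and 66.8% of those are members. Of all genes tested, 722 (5.56%) were at least 2-fold lower in 9HS than in 9NS, and 24.0% of those are members. Both limits of the rule use the 9NS libraries.

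The rule fixed only in part where the hypoxic level would lie against the early night, so this is a description. A member could be 2-fold above 2NS only with a night difference well beyond the rule's limit, and the members' median night log2 difference was 1.53. The median log2 difference of 9HS against 2NS was -0.18 for the members and 0.02 for all genes tested. In 9HS, 110 of the 173 members were below 2NS, and 147 were within 2-fold of it, while 26 were at least 2-fold below it and 0 at least 2-fold above it. The members that were farthest below include ENODL8 (AT1G64640), an early nodulin-like protein gene, at 11.6 in 2NS, 40.3 in 9NS and 2.75 in 9HS. AT4G28240, of the wound-responsive family, was at 12.4, 38.0 and 3.49.

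The rule's limits fell in a continuous range. Just inside for the night were SAUR16 (log2 difference 1.00), MYB3 (1.01) and PSY1 (1.01), and just outside were PAD3 (0.997), AT4G24275 (0.991) and EXPA8 (0.987). Just inside for hypoxia were UMAMIT33 (-1.0), AGP40 (-1.01) and AT5G24580 (-1.01), and just outside were AT5G57655 (-0.985), HB-7 (-0.978) and AT1G42430 (-0.971). The 9NS library of 9.35 M reads, with a summed RPKM of 106 kRPKM, weighs on the list: without it 264 genes pass, of which 163 are among the 173.

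Members were shorter than the genes tested, with a median length of 1539 bases against 2254. In 13 places members lie next to each other, 28 members in all, among them SAUR19, SAUR20 and SAUR21, the pairs LHCB2.1 with LHCB2.2 and LHCB1.1 with LHCB1.2, and the sulfotransferases ST2A and ST2B. Another annotated gene overlaps 42 members, and reads from the pair may not be separable.

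Morning clock genes included some of the largest differences over the night. A list of 16 such genes had 11 that could be tested, and 7 are members: CCA1, LHY, RVE1, RVE4, LNK2, LNK3 and LNK4. LNK4 (AT5G06980), a partner of RVE factors, was at 0.35 in 2NS, 24.2 in 9NS and 1.32 in 9HS. Its relatives LNK3 (AT3G12320; 0.46, 16.7 and 0.73) and LNK2 (AT3G54500; 1.54, 35.9 and 3.99) had the same order. CCA1 (AT2G46830) was at 0.78, 14.3 and 1.64, and LHY (AT1G01060) at 2.46, 14.3 and 1.79. LHY is thus the one of these 5 that lay below its early-night level under hypoxia. RVE1 (5.02, 19.6 and 7.30), a factor of auxin and dormancy control, and RVE4 (11.8, 28.4 and 9.50), a close relative of the clock activator RVE8, had higher levels to start with and smaller differences.

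The 4 morning genes outside the set did not share one pattern. RVE8 missed the second limit narrowly, with log2 differences of 1.03 at night and -0.91 under hypoxia, and RVE7 was at 1.22 and -0.56. RVE2 had the opposite order, with -2.65 and 2.28, and RVE5 differed little, with 0.24 and 0.02. Of 8 evening clock genes tested, 0 are members and 5 were at least 2-fold lower in 9NS than in 2NS. The evening complex gene ELF4 was at -2.52 at night and 1.18 under hypoxia, and TOC1, which represses CCA1 and LHY, at -1.53 and 1.43.

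**Figure D1:**
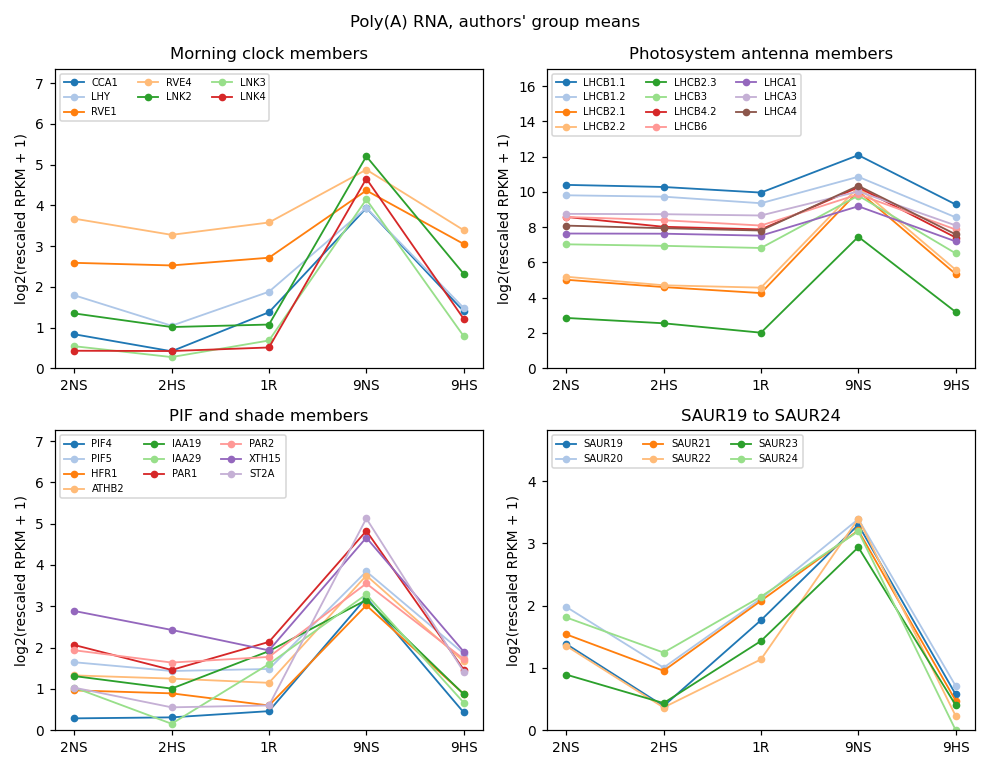
Poly(A) RNA of members in 5 groups, as log2 of rescaled RPKM plus 1 (y axis) for each group (x axis, in categories joined by lines to guide the eye), from the authors' group means with no error. Each line is a gene; 9NS is the highest group in every line of the 4 panels, which the rule fixes for 2NS and 9HS but not for 2HS and 1R.

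Light-signalling factors of the B-box zinc finger family formed a second group. Of 14 B-box and light-signalling genes tested from a list of 24, 5 are members: COL2, BBX16, BBX24, BBX25 and BBX28. BBX28 (AT4G27310) was at 1.49 in 2NS, 27.5 in 9NS and 1.15 in 9HS, and BBX24 (AT1G06040), a negative regulator of light responses, at 2.90, 38.5 and 3.63. The CONSTANS-like gene COL5 (AT5G57660), a B-box gene that was not on the list, was at 9.99, 107.8 and 13.0. The family was not uniform: BBX15 was at -1.30 at night and -1.16 under hypoxia (log2 differences), and BBX14 at -1.18 and -0.63.

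Of the PIF and shade genes, 10 of 15 tested are members. PIF4 (AT2G43010) and PIF5 (AT3G59060), bHLH factors that drive elongation, were at 0.22 and 2.13 in 2NS, 8.24 and 13.4 in 9NS, and 0.35 and 2.62 in 9HS. HFR1, PAR1 and PAR2, which restrain PIF action, were also highest in 9NS. As group means they were lower in 9HS than in 2NS, and PIF4 and PIF5 higher. These differences were mostly small and at low levels, and the HFR1 libraries of 2NS and 9HS overlap. HFR1 (AT1G02340) was at 0.49, 1.37 and 0.80 in the 2NS libraries, at 5.20, 8.16 and 10.00 in those of 9NS and at 0.82, 0.52 and 0.96 in those of 9HS. The rule chose it for the high 9NS mean, and the libraries are a description. ATHB2, a shade-induced homeobox gene, was at 0.84, 1.82 and 2.02 in 2NS, at 12.2, 12.5 and 12.8 in 9NS and at 1.89, 2.64 and 2.15 in 9HS, described likewise. ST2A (AT5G07010), a jasmonate sulfotransferase gene, was at 1.04, 34.0 and 1.67 as group means. The other members of the list are XTH15, a cell wall enzyme gene, and the auxin response repressors IAA19 and IAA29.

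PIF1 and PIF3, the other PIF genes tested, were not members, with log2 differences at night of -0.18 and 0.35. The shade-induced homeobox genes HAT1 and HAT2 came close at night (0.85 and 0.94) and were lower under hypoxia (-1.51 and -1.55).

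Small auxin-induced genes of the SAUR family, whose proteins promote cell expansion, had the most members among the few families counted. There are 14 members among 44 SAUR genes tested, a count made after the values were seen, and SAUR19 to SAUR24 are the 6 that were on the growth list, 6 of its 19 tested. SAUR22 (AT5G18050) was at 1.48, 1.81 and 1.07 in the 2NS libraries, at 6.70, 11.2 and 12.7 in those of 9NS, and at 0, 0 and 0.32 in those of 9HS. SAUR24 was at 2.51, 8.14 and 0 as group means. These neighbours have near-identical copies, so reads may have been split between them. Other growth genes fell outside: IAA2 was at 1.69 at night and -0.81 under hypoxia, and the expansin gene EXPA8 at 0.99 and -2.80 (log2 differences). A devil-type peptide gene, RTFL18 (AT5G16023), was at 0.40, 0.16 and 0 in 2NS, at 6.98, 13.5 and 11.7 in 9NS and at 0 in all 3 libraries of 9HS.

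Genes for the light-harvesting antenna held the highest levels of the set. Of 17 tested, 11 are members, and they are LHCB1.1, LHCB1.2, LHCB2.1, LHCB2.2, LHCB2.3, LHCB3, LHCB4.2, LHCB6, LHCA1, LHCA3 and LHCA4. LHCB1.1 (AT1G29920) was at 1350 in 2NS, 4349 in 9NS and 625 in 9HS. The 3 LHCB2 genes, which code for one of the main proteins of the photosystem II antenna, had the largest night differences of all members. LHCB2.2 (AT2G05070) was at 35.5, 1231 and 47.0, LHCB2.1 (AT2G05100) at 31.4, 1052 and 39.7, and LHCB2.3 (AT3G27690) at 6.23, 174.7 and 8.14. Their log2 differences at night were 5.08, 5.02 and 4.60. LHCB3 was at 129.7, 885 and 90.5, and LHCA4, of photosystem I, at 271, 1303 and 192. Genes of this family are close in sequence, so the split of reads between copies is uncertain.

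LHCB4.3, an isoform gene of the minor antenna, had the opposite order, at -1.01 and 2.22. LHCB1.4 (0.77 and -2.32) and LHCB1.3 (0.30 and -1.55) were lower under hypoxia with no 2-fold difference at night. Of 12 chlorophyll synthesis genes tested, CAO, which makes chlorophyll b, is the 1 member, at 5.30, 17.0 and 1.65.

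Genes known to respond to darkness and low sugar were mostly outside the set, with 3 of 26 tested. ASN1 (AT3G47340), the dark-inducible asparagine synthetase, was at 3.75 in 2NS, 39.2 in 9NS and 4.62 in 9HS, and the sugar transporter STP1 at 17.9, 69.0 and 27.8. The trehalose-phosphate synthase gene TPS11 was at 6.53, 14.7 and 5.24. The dark-inducible SEN1 was 2.01 higher at night and 0.51 lower under hypoxia on the log2 scale, BCAT2 was at 1.72 and -0.27, IVD at 1.58 and 0.28, and BZIP1 at 1.4 and -0.94. The last 4 were thus higher at night and stayed outside by the hypoxia limit. Of 8 cold-regulated, 6 flavonoid, 6 nitrate assimilation and 15 core hypoxia genes tested, 0 are members. ERF72 (AT3G16770), of the group VII ethylene response factors that take part in oxygen sensing, is a member near the limit, at 62.3, 127 and 57.3.

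Nuclear RNA, an assay the rule did not use, asks whether the same genes are higher at night in the nucleus. Here 160 members reached a mean of 1 RPKM and 122 had values for each library. Of the 122, 121 were above 0 in 9NS against 2NS, with a median log2 difference of 1.42 against -0.05 over all genes, but the filter on the mean favours members that are high in 9NS. In limma, adjusted over all genes, 9 rose and 0 fell (0.0718% of all 15313 genes called higher, or 11 genes; 0.0196% called lower). Among the genes also tested in poly(A) RNA, which all members are, the shares were 0.08% and 0.0267%. Of the 122, 96 reached 1 RPKM in 2NS itself, and 2 of these rose, and the others of the 9 passed the filter through other groups. The 9 are LNK4, LNK3, CDF3, ST2A, AT3G55240, BBX28, CIPK20, SAUR22 and BBX16.

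LNK4 nuclear RNA was at 0.81, 0.12 and 0.94 in the 2NS libraries, at 35.4, 50.2 and 27.5 in those of 9NS and at 0.24, 0.29 and 0.65 in those of 9HS. The night rise was 4.58 on the log2 scale (SE 0.49, limma adjusted p = 7.3e-05) and the hypoxia difference was -4.76 (SE 0.49, limma adjusted p = 3.9e-05). CDF3 (AT3G47500), a DOF-type factor of flowering time control, was at 0.84, 0.12 and 0 in 2NS, at 16.7, 13.9 and 16.4 in 9NS and at 0.75, 0 and 0.11 in 9HS. Its night rise was 3.71 (SE 0.50, limma adjusted p = 0.0012). In both genes every 9NS library was above every library of the other groups. Both were below 1 RPKM in every 2NS library and passed the filter through groups where they are higher. Their night values are therefore best read as a description. The members that could not be tested at 9NS include CCA1, with group means of 6.0 in 2NS, 109.7 in 9NS and 1.90 in 9HS, LNK2 (6.61, 494.5 and 8.25), PIF4 (0.77, 23.7 and 0.25) and LHCB2.2 (26.8, 381 and 29.9). Without the 9NS library of 4.21 M reads the count of 9 was 5, and in a fit of 2NS and 9NS alone it was 28. With a pseudocount of 0.1 it was 0.

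Under hypoxia the nuclear RNA of 61 members fell. Of 122 tested, 61 fell and 0 rose in 9HS against 9NS, while 2.48% of all 15148 genes were called lower and 1.82% higher (2.28% and 2.44% of those also tested in poly(A) RNA), and the median was -2.03 against -0.25. Of the 122, 68 reached 1 RPKM in 9HS itself, and 29 of these fell; the others passed the filter through groups where they are higher. The 9NS libraries are those of the night comparison too. The 3 clock members tested fell (LNK4, LNK3 and RVE1), as did 6 of 8 PIF and shade members, 4 of 5 B-box members and 4 of the 6 from SAUR19 to SAUR24. IAA29 (AT4G32280) was at 16.4, 39.1 and 21.6 in the 9NS libraries and at 0.30, 0 and 0.16 in those of 9HS, a difference of -4.45 (SE 0.70, limma adjusted p = 0.0014). HFR1 was at 21.4, 21.5 and 11.0 against 0.70, 0 and 0.11, a difference of -3.88 (SE 0.59, limma adjusted p = 0.00099). Both genes were below 1 RPKM in every 9HS library. In 101 of the 122 members no 9HS library reached the lowest 9NS library, against 23.8% of all genes. The filter on the mean favours members that are high in 9NS here too. Without the 9NS libraries of 6.40, 4.21 and 3.76 M reads the count of 61 was 33, 33 and 36, and without the 9HS libraries of 2.36 and 2.18 M reads it was 35 and 40. With a pseudocount of 0.1 it was 33.

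**Figure D2:**
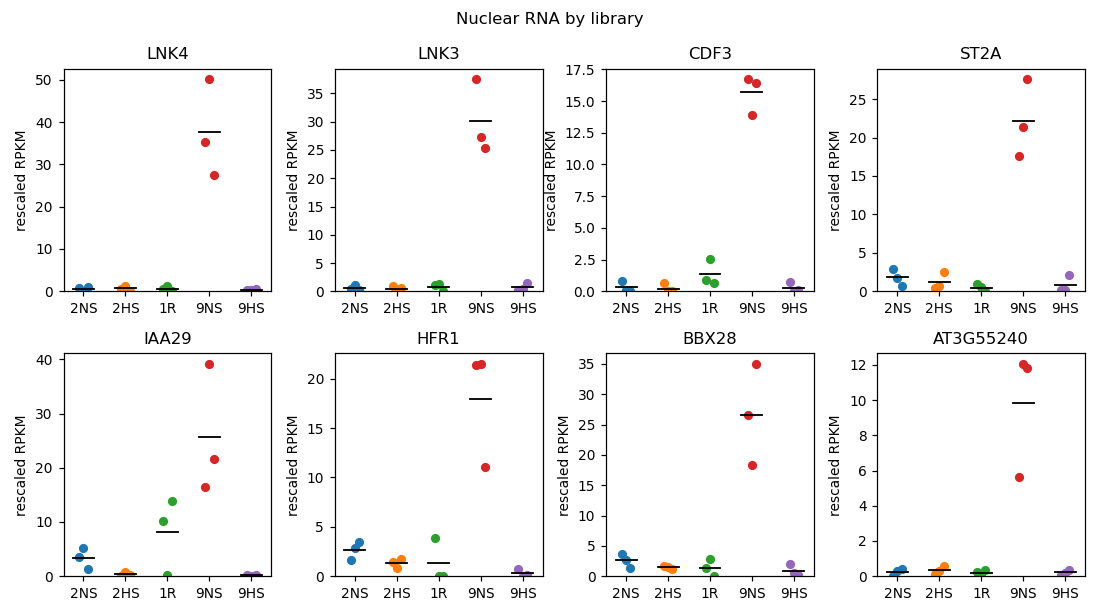
Nuclear RNA of 8 members as rescaled RPKM (y axis, starting at 0) by group (x axis). Points are libraries and bars their means. The 3 libraries of 9NS lie above those of every other group in each of the 8 panels, and the filter on the mean favours such members.

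Set against the early night, few members were called in hypoxic nuclear RNA. In 9HS against 2NS, 35 of 147 members tested were at least 2-fold lower and 4 higher, with 17.8% and 5.55% of all genes. Few calls do not show equal levels, since 18% of simulated 4-fold changes were called for nuclear RNA in 9HS against 9NS. Of 147 tested, 1 rose and 8 fell in 9HS against 2NS, with 1.16% and 2.33% of all genes called (1.57% and 2.1% of those also tested in poly(A) RNA), and the median was -0.44 against -0.30. LHY was the clock gene among those that fell, from 15.7, 16.7 and 16.2 to 3.38, 4.42 and 6.20, a difference of -1.63 (SE 0.41, limma adjusted p = 0.039). ENODL8 fell by 2.49 (SE 0.55, limma adjusted p = 0.017), and PKS2, a phytochrome kinase substrate gene, also fell. AT3G53980, a lipid-transfer family gene, rose. This count depends on the scaling: with no rescaling it was 1 higher and 0 lower. Without the 2NS libraries of 15.5, 3.02 and 2.22 M reads it was 1, 4 and 3 in all, and without the 9HS libraries of 2.36 and 2.18 M reads it was 3 and 2.

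Acetylation of histone H3 at lysine 9 (H3K9ac), a mark of active promoters, had the same order of groups as the RNA at many members. All 173 passed the filter and were resolved. The median level over the gene was 18.6 in 2NS, 29.8 in 9NS and 13.7 in 9HS, while the median over all genes was 18.6, 18.1 and 17.0. In 9NS against 2NS, 17 members rose and 0 fell, with 0.149% and 0.0834% of 34786 genes called (0.2% and 0.162% of those also tested in poly(A) RNA), and the median was 0.53 against 0.01. Those that rose include LNK2, LNK3 and LNK4, BBX24, PIF4, HFR1, ST2A, CDF3 and ASN1, and none of the 11 antenna members, whose median was 0.75. H3K9ac at LNK4 was 9.99 and 8.59 in the 2NS libraries, 63.2 and 51.8 in 9NS and 15.3 and 13.5 in 9HS, a night rise of 2.5 (SE 0.14, limma adjusted p = 0.00087). At HFR1 it was 9.99 and 8.96, 28.3 and 31.4, and 8.27 and 9.75. At both genes the 9NS libraries stood above all others. In 138 of 173 members both 9NS libraries were above both of 2NS, against 20.2% of all genes. Without the 2NS library of 10.6 M reads the count of 17 was 1, and without the 9NS libraries of 11.5 and 3.94 M reads it was 5 and 2. With median-ratio scaling it was 7, and in a fit of 2NS and 9NS alone 5.

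In 9HS against 9NS H3K9ac fell at 129 members and rose at 7, with 11.7% and 11.6% of all genes called. The median was -1.14 against -0.02. Among the 12986 genes also tested in poly(A) RNA the shares were 23% and 16.9%. By group, those that fell were 9 of 11 antenna members (not LHCB2.1 and LHCB3), CAO, 3 of 3 dark and sugar members, 4 of 5 of the B-box list, 7 of 10 PIF and shade members, 10 of 14 of the SAUR family, 3 of 4 of the devil-type peptide family and 5 of 7 of the morning clock (not CCA1 and LHY). SAUR15 had the largest difference, from 46.9 and 28.6 in 9NS to 4.84 and 5.69 in 9HS, or -2.59 (SE 0.21, limma adjusted p = 0.00011). AT3G55240, a gene of unknown function whose RNA was at 0.36, 23.5 and 0.50, went from 33.6 and 22.6 to 3.21 and 4.80, or -2.53 (SE 0.25, limma adjusted p = 0.00021). LHCA4 went from 61.2 and 46.8 to 21.9 and 12.2. A fall against 9NS can be a missing night rise or a level below 2NS. As group means, 9HS against 2NS had a median of -0.44 at the members and -0.08 over the genes tested in poly(A) RNA. Against 2NS, 35 members were at least 2-fold lower and 6 higher, with 7.71% and 4.54% of those genes.

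Some members were not called lower in the mark, or were called higher, while their RNA was low. A member that was not called may still have changed, since 36% of simulated 2-fold changes were called. PIF4 was at 34.7 and 33.2 in 9NS and at 29.4 and 26.2 in 9HS, above its 2NS libraries of 9.86 and 7.31, and it was not called. IAA19 rose from 21.1 and 15.9 to 32.0 and 34.2, or 0.82 (SE 0.15, limma adjusted p = 0.0049), while its nuclear RNA fell. The other members that rose are AT1G21520, AT1G62420, AT2G21640, the auxin-conjugating GH3.3, GSTU4 and AT5G64180. CCA1 was at 23.4 and 19.1 against 16.1 and 13.5 and did not pass the test.

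**Figure D3:**
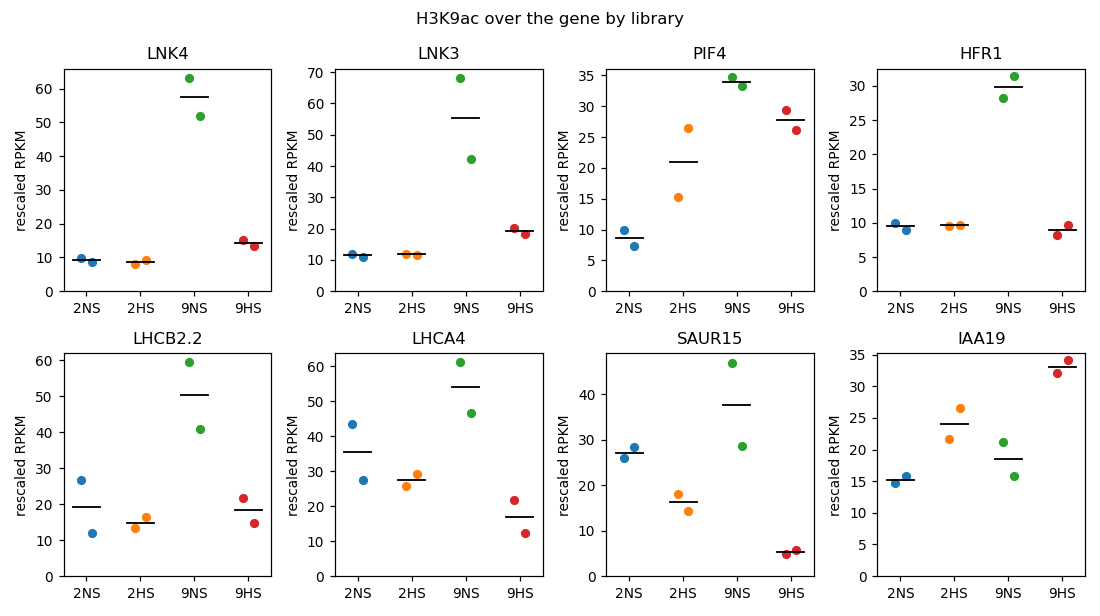
H3K9ac over the gene at 8 members as rescaled RPKM (y axis, starting at 0) by group (x axis). Points are the 2 libraries of a group and bars their means; 9NS is above 9HS in every panel except IAA19, where both 9HS libraries are higher.

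The share of genes called lower in H3K9ac in 9HS against 9NS is described here by group. It is set beside those of genes that met 1 of the limits of the rule. It was 74.6% of the members, 43.0% of 86 genes that were higher at night and not lower with hypoxia, 48.3% of 549 genes that were lower with hypoxia and not higher at night, and 21.0% of the other genes. In nuclear RNA the shares called lower were 50.0%, 13.6%, 15.5% and 1.11% of those tested. The 50.0% includes members that passed the filter only through groups where they are higher. Of the 122 members tested, 68 reached 1 RPKM in 9HS itself, and 29 of these were called lower. This was not counted for the other groups of genes, so the nuclear shares are not matched. Of the members, 61 were called lower in nuclear RNA, 129 in H3K9ac and 53 in both. This overlap was not counted over all genes, so it is a description only.

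Acetylation at lysine 14 (H3K14ac), another mark of active genes, was measured in the same groups. In 9NS against 2NS limma called 0 members and 0 genes (0%), with 41 members and 1436 genes at an unadjusted p under 0.05. In 9HS against 9NS 40 members fell and 4 rose, with 4.73% and 7.81% of 34964 genes called (5.71% and 17.9% of those also tested in poly(A) RNA), and the median was -0.36 against -0.16. HFR1 fell by 1.31 (SE 0.22, limma adjusted p = 0.0096), SAUR15 by 1.28 (SE 0.30, limma adjusted p = 0.029), and AT3G17580, AT5G02540 and OBP4, a DOF-type factor gene, also fell. Those that rose are ENODL8, SPD1, COL5 and AT5G64180. None of the 11 antenna members was called, and their median was -0.01. Both acetylation marks fell at 37 members, an overlap that was not counted over all genes. Without the 9NS libraries of 7.05 and 6.55 M reads the count of 44 was 5 and 9, and without the 9HS library of 8.36 M reads it was 4. With median-ratio scaling 23 fell and 6 rose.

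**Figure D4:**
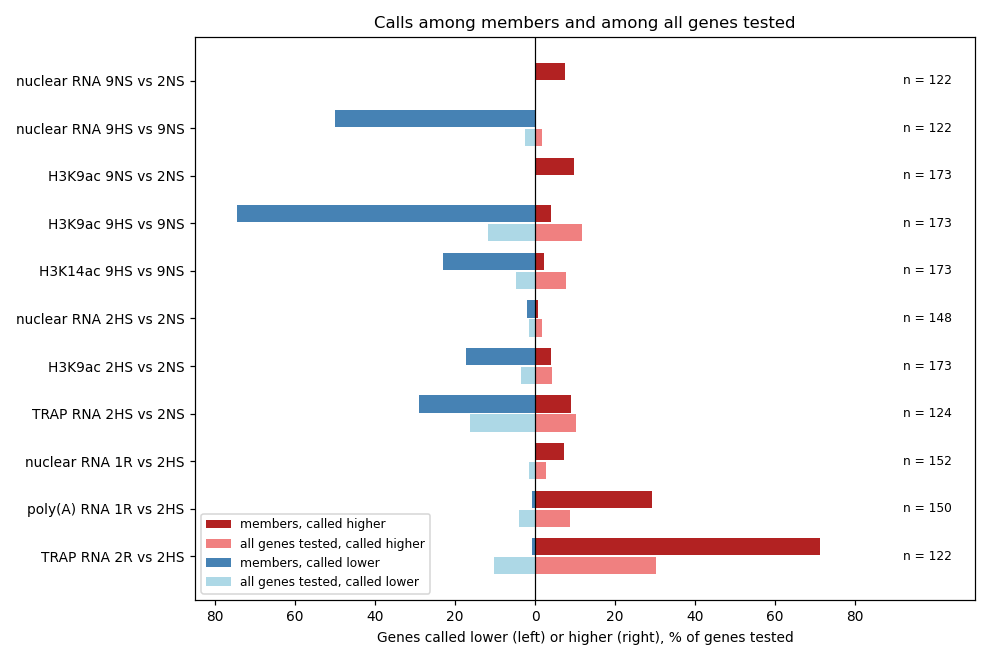
Share of genes called by limma at an adjusted p under 0.05 in 11 comparisons (x axis in percent, lower to the left of 0 and higher to the right), for the members tested (dark bars, number at the right) and for all genes tested (pale bars). The members' largest shares are 74.6% lower in H3K9ac at 9HS and 71.3% higher in TRAP RNA at 2R. In nuclear, TRAP and poly(A) RNA some members passed the filter only through groups where they are higher.

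At 2 h of hypoxia, early in the night and before the rise, the members showed mixed responses. In poly(A) RNA their median level was 1.83 in 2HS against 2.34 in 2NS, and 14 were at least 2-fold lower and 0 higher (1.82% and 2.57% of all genes), described only, since the 2NS column was used by the rule. In nuclear RNA 1 of 148 tested rose and 3 fell, with 1.6% and 1.58% of all genes called (2.03% and 1.63% of those also tested in poly(A) RNA). LHY fell from 15.7, 16.7 and 16.2 to 3.10, 0.66 and 4.15, or -2.39 (SE 0.41, limma adjusted p = 0.0034). GT2L, a trihelix factor gene, fell from 9.73, 5.97 and 10.5 to 1.21, 0 and 1.34, and AT5G19190 also fell. GBSS1, the granule-bound starch synthase, rose from 2.05, 0.48 and 0.50 to 4.90, 8.49 and 7.17. The count of 4 was 2 without any one of the 2NS libraries of 15.5, 3.02 and 2.22 M reads, 1 without the 2HS library of 3.04 M reads, and 0 with no rescaling.

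In ribosome-bound RNA more members fell than rose at 2 h. Of 124 members tested in TRAP RNA, 36 fell and 11 rose in 2HS against 2NS, with 16.2% and 10.2% of all genes called (18.4% and 10.8% of those also tested in poly(A) RNA), and the median was -0.35 against -0.08. Of the 124, 104 reached 1 RPKM in 2HS itself, and 31 of these fell and 11 rose. AT5G66580, a gene of unknown function, went from 15.5, 14.6 and 14.6 to 2.04, 1.25 and 1.69, or -2.59 (SE 0.16, limma adjusted p = 3.2e-07). The glucosyltransferase UGT74E2, which acts on indole-3-butyric acid, went from 35.4, 37.3 and 46.5 to 8.64, 8.33 and 4.63. AT5G12050, ENODL8 and AT5G19190 fell to a like extent. CCA1 and RVE4 fell among the clock members, IAA29, PAR1 and PAR2 among the PIF and shade members, and BBX25 in the B-box list. CCA1 was at 18.9, 18.8 and 14.2 in 2NS and at 8.74, 5.44 and 6.20 in 2HS, with no overlap. MYBL2, a repressor of anthocyanin synthesis, rose from 1.73, 2.45 and 0.27 to 3.47, 5.41 and 5.52, as did GH3.3, the senescence factor NAP and BEH1, of the brassinosteroid pathway. The antenna members could not be tested, and as group means LHCB2.2 was at 876 in 2NS and 523 in 2HS, and LHCB3 at 411 and 166.

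H3K9ac at 2 h fell at 30 members and rose at 7, with 3.56% and 4.29% of all genes called (7% and 6.26% of those also tested in poly(A) RNA), and the median was -0.28 against -0.00. GASA6, a gibberellin-regulated gene, fell by 1.48 (SE 0.29, limma adjusted p = 0.019) and PAR1 by 1.29 (SE 0.15, limma adjusted p = 0.0019). BRG3 and ST2B also fell. AT1G62420 rose from 9.00 and 10.2 to 29.3 and 33.2, or 1.60 (SE 0.15, limma adjusted p = 0.0012), and PIF4 rose from 9.86 and 7.31 to 15.3 and 26.5, or 1.15 (SE 0.23, limma adjusted p = 0.019). PIF4 RNA was below 1 in nuclear, poly(A) and TRAP RNA of both groups. None of the 7 clock members and none of the 11 antenna members was called. Without the 2NS libraries of 11.3 and 10.6 M reads the count of 37 was 11 and 17, and without the 2HS libraries of 8.73 and 3.87 M reads it was 24 and 18. With median-ratio scaling it was 20.

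In 3 other chromatin assays at 2 h limma called 0 members and 0 genes (0%). For elongating RNA polymerase II (phosphorylated at serine 2) 10 of 127 members tested and 794 genes had an unadjusted p under 0.05. For H3K14ac the numbers were 47 members and 4355 genes, and for H2A.Z 20 members and 2788 genes. Without the H2A.Z 2HS library of 10.0 M reads 3 members were called, with no share over all genes given for that fit. H3K4me3, described by group means, had a median difference of 0.02 at the members, and no member differed 2-fold. For H3K27me3 the median was also 0.02, with 17 members at least 2-fold higher in 2HS and 12 lower, while 11.7% and 3.86% of all genes were.

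After reoxygenation most members tested were higher in ribosome-bound RNA. Of 122 tested, 87 rose and 1 fell in 2R against 2HS, with 30.1% and 10.4% of all genes called (34.1% and 10.3% of those also tested in poly(A) RNA), and the median was 1.04 against 0.22. Of the 122, 102 reached 1 RPKM in 2HS itself, and 68 of these rose. Reoxygenated seedlings were also taken later in the night, and the oxygen and the hour cannot be told apart. Every tested member of the B-box list (5 of 5) and of the morning clock (4 of 4, LNK2, LNK3, LNK4 and RVE4) rose, as did 8 of 10 PIF and shade members and 8 of 10 SAUR members. AT5G62280, a gene of unknown function, was at 22.1, 28.4 and 16.0 in 2NS, at 5.95, 2.90 and 3.49 in 2HS and at 87.8, 49.1 and 69.0 in 2R, a rise of 3.77 (SE 0.26, limma adjusted p = 4.7e-07). APD7, a protein phosphatase gene, was at 20.5, 21.8 and 16.8, at 3.42, 4.36 and 5.25 and at 49.8, 52.7 and 43.3. In both genes 2R was above 2NS as well, with no overlap. LNK4 went from 0.31, 0.44 and 0.85 in 2HS to 3.83, 4.98 and 3.30, and IAA29 from 0.25, 0.19 and 0.21 to 5.40, 7.04 and 3.07. BEH1 fell, from 23.4, 12.1 and 13.5 to 9.13, 9.99 and 9.80. As group means LHCB2.2 went from 523 to 1370 and CCA1 from 6.80 to 57.8. The share that rose was 71.3% of the members tested, 34.0% of 53 genes higher at night alone, 61.4% of 389 genes lower with hypoxia alone and 32.4% of the other genes. How many genes outside the members reached 1 RPKM in 2HS itself was not counted.

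**Figure D5:**
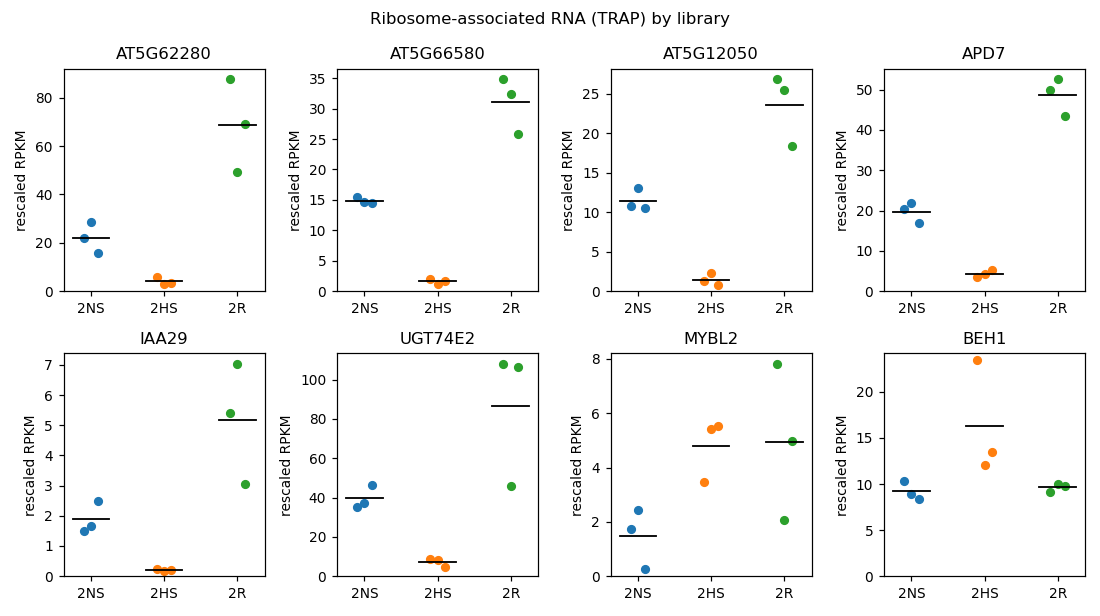
Ribosome-bound (TRAP) RNA of 8 members as rescaled RPKM (y axis, starting at 0) by group (x axis). Points are libraries and bars their means; in AT5G62280, AT5G66580, AT5G12050, APD7 and IAA29 the 2R libraries lie above those of both 2NS and 2HS, while BEH1 is highest in 2HS.

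After 1 h of reoxygenation a smaller number of members passed the test. In poly(A) RNA 44 of 150 tested rose and 1 fell (AT3G13980) in 1R against 2HS, with 8.83% and 3.94% of all genes called, and the median was 0.22 against 0.06. Of the 150, 99 reached 1 RPKM in 2HS itself, and 25 of these rose; the others passed the filter through other groups. The SAUR family had 10 of 14 up, including SAUR19 to SAUR24. MAKR6 and AT5G62280 rose most, by 2.63 each (SE 0.26 and 0.22, limma adjusted p = 3.1e-06 and 5.6e-07), and AT5G62280 was at 0.95, 1.67 and 2.47 in 2HS and at 12.1, 14.7 and 17.5 in 1R. LHY rose from 0.89, 0.99 and 1.81 to 2.05, 2.95 and 3.06, and CCA1 also rose. The count of 45 was 27 with no rescaling. In nuclear RNA 11 of 152 rose and 0 fell, with 2.81% and 1.44% of all genes called (2.82% and 1.75% of those also tested in poly(A) RNA), and the median of 0.20 equalled that of all genes. Of the 152, 109 reached 1 RPKM in 2HS itself, and 7 of these rose. GT2L rose by 3.53 (SE 0.52, limma adjusted p = 0.0016), LHY by 2.81 (SE 0.41, limma adjusted p = 0.0015) to 28.0, 21.2 and 17.7, and SAUR21, AT5G62280 and the homeobox gene HB-12 also rose. Without the 2HS library of 3.04 M reads the count of 11 was 6, without the 1R library of 1.05 M reads it was 17, and in a fit of 2HS and 1R alone it was 1.

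Chromatin of the members in 2NS, before the rise, is described by group means with no test. In 2NS the median H2A.Z level, a histone variant found over responsive genes, was 20.2 at the members and 11.9 over all genes, and the median of H3K27me3, the Polycomb mark, was 6.15 and 3.51. H3K27me3 was highest at EARLI1 (169), FLP1 (157), GH3.3 (137.9), AT4G22666 (94.1) and AT3G55240 (84.2). H3K4me3 was lower at the members, with a median of 14.9 against 19.0. Members are shorter than other genes, and the part of length in these levels was not tested.

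Open chromatin in roots was scored as an ATAC peak from 1000 bases before to 500 after the gene's start, with the member as the peak's nearest promoter. A peak was found at 45 members in 2NS, 77 in 2HS, 103 in 1R, 85 in 9NS and 63 in 9HS. The shares were 26.0%, 44.5%, 59.5%, 49.1% and 36.4%, against 32.7%, 59%, 72.8%, 56.9% and 50.4% of all genes tested, and so lay below the background in each list. The lists hold 14398, 27219, 38958, 27065 and 21438 peaks, one list per condition with no replicate spread, so the order of the counts follows the length of the lists except that 2HS and 9NS, which are of near-equal length, had 77 and 85. A peak stood in all 5 lists at 37 members, LHY among them, and in none at 67, counts that were not made over all genes. HRE2, a hypoxia-induced group VII factor expressed here as C2A HRE2-HA from a constitutive promoter, had a peak at 21 members, 12.1% against 12.8% of all genes.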

How the data were processed

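The authors deposited gene values as RPKM, the mean of each group's replicates in 30 columns. The submitters' processing notes name Bowtie2, TopHat2, HOMER and TAIR10; their versions are not given in the labels used here. Per the file headers, HOMER annotated 1 ATAC or HRE2 peak list per condition on TAIR10 with Araport11; the deposited peak score was used to rank ATAC peaks, and the HRE2 score is 0 throughout.

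Each RPKM mean times the gene's length is a sum of whole reads over library totals, so the totals of 75 libraries in 29 columns, and the reads of most genes, were solved from the digits. On 8 simulated columns all totals were found and 100% of the resolved genes were right. No gene length came from the files: lengths are those of RefSeq genes matched by locus tag, and 35493 of 37746 genes gave whole reads. Genes with several solutions were left out of that comparison. No replicate pair agreed within sampling noise (smallest chi-square per gene 1.72). The largest value was 61.4, for elongating RNA polymerase II in 2NS, and H3K27me3 in 2HS was at 36.8.

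Values were rescaled to one total per assay, log2(RPKM + 1) was taken, genes averaging 1 RPKM or more across an assay were kept, and limma 3.58.1 (R 4.3.3) with trend was fitted per assay over all its groups, with Benjamini-Hochberg adjustment over all genes at 0.05. Fold changes on this scale understate those of low genes. "Rose" and "fell" mean called at that threshold. On simulated libraries limma called 18% of 4-fold changes for nuclear RNA 9HS vs 9NS, 69% for H3K9ac 9HS vs 9NS and 94% for TRAP 2HS vs 2NS. Python 3.11.15, pandas 2.3.3, numpy 2.4.6 and matplotlib 3.10.9 were used. The members, the gene lists and the tests were chosen with earlier results of these data known. Named members are the 12 with the largest night difference, the 8 next most negative under hypoxia, those on a list, up to 5 per comparison and those at the limits; others named were picked after their values were seen. Alternatives covered the pseudocount, the filter, the scaling, the groups fitted and each library left out.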

Additional observations from a re-analysis of the deposited data

Results flagged for a closer look

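The H3K9ac response to hypoxia was compared between 9 h and 2 h, as the 9 h difference (9HS minus 9NS) minus the 2 h difference (2HS minus 2NS), in a limma test added after the data were seen. At 35 members the 9 h difference was lower than the 2 h difference and at 0 members higher, while 403 and 292 of 34786 genes were called. The count ranged from 0 to 23 when each library was left out: it was 0 without the 2NS library of 10.6 or the 9HS library of 11.7 M reads, 4 without the 9NS library of 11.5, 8 without the 2HS library of 8.73, 11 without the 2NS library of 11.3 or the 9NS library of 3.94, 15 without the 9HS library of 13.0 and 23 without the 2HS library of 3.87 M reads. With median-ratio scaling it was 2.

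The H3K9ac difference between hypoxia and air had opposite signs at 2 h and 9 h at 2 members. How many of all genes did so was not counted. Neither member's difference was called in the fits above where the count was 0. At AT2G28400, a senescence regulator family gene, H3K9ac was 0.50 higher than in air at 2 h and 0.60 lower at 9 h (log2). The difference was -1.10 (SE 0.16, limma adjusted p = 0.027). Its libraries were at 26.4 and 23.4 in 2NS, 34.0 and 37.2 in 2HS, 31.7 and 35.7 in 9NS and 21.8 and 21.7 in 9HS. UMAMIT33, a transporter gene, was 0.64 higher than in air at 2 h and 0.87 lower at 9 h. The difference was -1.52 (SE 0.19, limma adjusted p = 0.0187). UMAMIT33 was at 16.8 and 12.9, 23.3 and 23.7, 41.6 and 38.2, and 22.8 and 19.9. Its 9HS libraries thus lay above those of 2NS, and its 9NS libraries were the highest.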

How the results depend on the processing

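No paired analysis was possible because the recovered libraries carry no replicate number. HRE2 peaks could not be ranked, since their scores are 0, and promoter motifs were not analysed here. Of 107 alternatives other than leaving out a library, 76 gave a count within 1.5 times of the reported one. The 173 members became 71 with a pseudocount of 5, 98 with a minimum of 5 RPKM, 74 with a limit of 1.5 and 6292 with no rescaling, and 133 to 264 when each library was left out.

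With a pseudocount of 0.1 the members called in nuclear RNA were 0 (9NS vs 2NS), 33 (9HS vs 9NS), 5 (9HS vs 2NS), 2 (2HS vs 2NS) and 5 (1R vs 2HS). With no filter they were 4 (9HS vs 2NS) and 7 (1R vs 2HS). With no rescaling they were 22 (9NS vs 2NS), 1 (9HS vs 2NS; 1 higher and 0 lower, against 1 and 8, so the lower calls were lost), 0 (2HS vs 2NS), 5 (1R vs 2HS) and, in poly(A) RNA 1R vs 2HS, 27. In fits of the compared groups alone they were 28 (nuclear 9NS vs 2NS), 5 (H3K9ac 9NS vs 2NS), 2 (nuclear 2HS vs 2NS) and 1 (nuclear 1R vs 2HS). With median-ratio size factors they were 7 (H3K9ac 9NS vs 2NS), 29 (H3K14ac 9HS vs 9NS), 20 (H3K9ac 2HS vs 2NS) and 2 (H3K9ac, 9 h minus 2 h).

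Leaving out each library gave, for nuclear RNA, 5 to 6 (9NS vs 2NS), 33 to 49 (9HS vs 9NS), 1 to 7 (9HS vs 2NS), 1 to 5 (2HS vs 2NS) and 6 to 17 (1R vs 2HS). For H3K9ac it gave 1 to 13 (9NS vs 2NS), 112 to 124 (9HS vs 9NS), 11 to 24 (2HS vs 2NS) and 0 to 23 (9 h minus 2 h). It gave 4 to 44 for H3K14ac 9HS vs 9NS, 0 to 3 for H2A.Z, 34 to 50 for TRAP 2HS vs 2NS, 80 to 86 for TRAP 2R vs 2HS and 33 to 43 for poly(A) RNA 1R vs 2HS. The ATAC peaks with scores at or above their list's median gave 20 (2NS), 51 (2HS), 56 (9NS), 33 (9HS) and 65 (1R) members, and HRE2 windows gave 11 (500 before to 100 after the start) and 36 (2000 before to the gene's end). The cause of these differences was not tested. Shares over all genes are given for the main fits and not for these alternatives, so the members' counts here have no background beside them. For 59 single-gene calls, 509 of 609 alternative values kept the call, 100 lost it and 0 changed sign. In simulation, 1% of 2-fold changes were called for nuclear RNA 9HS vs 9NS, 36% for H3K9ac 9HS vs 9NS and 64% for TRAP 2HS vs 2NS.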
